A study of Mus musculus with 6 samples.

Results

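The type 2 cytokine locus is a stretch of mouse chromosome 11 that carries the genes for IL-4, IL-13 and IL-5 around the DNA repair gene Rad50, with the kinesin gene Kif3a at one end and the genes for IL-3 and GM-CSF (Csf2) further along the chromosome. Its 7 members were set by gene symbol, and counts were given for 18543 genes. Il3 was not analysed here, and the other 6 members all passed the filter on low counts, as did 14052 genes in all. The members were measured in group 2 innate lymphoid cells (ILC2s) sorted from mouse lung. There were 3 libraries labelled Atg5 knockout (KO) and 3 labelled wild type (WT). The KO libraries came from Atg5-/- mice and the WT libraries from wild-type mice, all C57BL/6 animals of 8 weeks. Every mouse, KO and WT alike, had received 0.5 µg of recombinant mouse IL-33 through the nose on 3 consecutive days, and cells were isolated on day 4, so no group without IL-33 was analysed here. Atg5 encodes part of the machinery that attaches LC3 to forming autophagosomes. The labels do not say in which cells, or by which deletion, the gene was lost, nor whether the 3 libraries of a group are 3 mice, so p-values reflect the spread between libraries alone, and that spread may be technical.

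ILC2s are tissue lymphocytes without rearranged antigen receptors that answer alarmins such as IL-33. IL-5 is the growth and survival factor of eosinophils, IL-13 acts on epithelium, goblet cells and smooth muscle, IL-4 directs B cell class switching and T helper cell differentiation, and GM-CSF acts on macrophages, dendritic cells and granulocytes. In mouse T helper cells, regulatory elements inside Rad50 act on the flanking cytokine genes as a locus control region, and the cytokine genes need the transcription factor GATA3 in T helper cells and ILC2s.

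The genes lie in the order Kif3a, Il4, Il13, Rad50, Il5 and Csf2 on the mm10 build. Kif3a (53567379 to 53601967, forward strand) ends 1014 bases from Il4 (53602982 to 53618669, reverse strand). Il13 (53631324 to 53634702, reverse strand) follows after 12654 bases, and Rad50 (53649519 to 53707319, reverse strand) after a further 14816 bases. Il5 (53720794 to 53725106, forward strand) starts 13474 bases beyond Rad50, and Csf2 (54247271 to 54249667, reverse strand) lies 522164 bases beyond Il5. The annotated coding transcripts of Il5, Il13 and Csf2 have 4 exons each.

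The promoters of Il13, Il4 and Il5 are shown because these close neighbours took different courses across the libraries. Each run is the RefSeq sequence (GRCm38.p6, of which mm10 is another name) from 250 bases before to 50 bases after the start of transcription, read 5′ to 3′ on the gene's strand. Capitals mark GATA-type hexamers (GATA after an A or T and before an A or G, on either strand) and the TATA hexamer TATAAA on the gene's strand.
Il13, chr11:53634653-53634952, reverse strand: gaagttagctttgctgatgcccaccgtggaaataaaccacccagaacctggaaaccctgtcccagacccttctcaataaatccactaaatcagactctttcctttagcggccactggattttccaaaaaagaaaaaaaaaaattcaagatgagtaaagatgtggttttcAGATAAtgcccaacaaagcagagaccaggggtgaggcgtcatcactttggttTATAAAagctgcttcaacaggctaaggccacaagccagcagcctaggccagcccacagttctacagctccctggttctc
Il4, chr11:53618616-53618915, reverse strand: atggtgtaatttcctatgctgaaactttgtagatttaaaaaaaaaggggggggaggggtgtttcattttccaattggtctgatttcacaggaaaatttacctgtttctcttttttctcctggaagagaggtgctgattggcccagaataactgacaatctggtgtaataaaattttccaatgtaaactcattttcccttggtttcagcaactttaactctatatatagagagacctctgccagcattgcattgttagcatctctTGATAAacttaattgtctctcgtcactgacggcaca
Il5, chr11:53720544-53720843, forward strand: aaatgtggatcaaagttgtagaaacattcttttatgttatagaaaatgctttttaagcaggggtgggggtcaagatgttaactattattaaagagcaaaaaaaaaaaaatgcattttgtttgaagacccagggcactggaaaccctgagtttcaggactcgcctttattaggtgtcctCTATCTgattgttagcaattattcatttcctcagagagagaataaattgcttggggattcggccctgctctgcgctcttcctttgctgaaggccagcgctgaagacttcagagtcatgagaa

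Each of the 3 windows held 1 GATA-type hexamer, a motif that 29.8% of all 32851 promoters in the RefSeq table hold. Its first base lay at position -81 in Il13, at 15 (downstream of the start) in Il4 and at -72 in Il5, where it reads on the opposite strand. TATAAA was present in Il13 at position -29 and in neither of the other windows, against 8.32% of all promoters. Only these exact letters were searched, so the run tatatata in the Il4 window was not counted. The NFAT core TGGAAA on either strand matched at 3 places in Il13, 2 in Il4 and 1 in Il5 (21.4% of all promoters hold a match). A STAT6-type palindrome (TTC, any 4 bases, then GAA) matched once in Il4, at -167, and not in the other windows (6.95% of all promoters). The AP-1 motif TGANTCA matched in none of the 3 windows (7.81% of all promoters). These are letter matches in one window and say nothing of binding. The RefSeq start is that of the deposited table for Il13 and Il5 and lies 4 bases from it for Il4. For Csf2, the RefSeq start lies 232 bases upstream of the start in the deposited table, so its window is not shown.

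The Atg5 level of the library labelled WT 3 goes against its label, and every direction below is one between labels. Atg5 was at 23.0, 25.6 and 52.1 CPM (counts per 1000000 after scaling) in KO 1, KO 2 and KO 3, against 66.3, 71.75 and 21.8 CPM in WT 1, WT 2 and WT 3. The Atg5 level of KO 3 lay between those of KO 1 and KO 2 and those of WT 1 and WT 2. The deleted exons are not named in the labels, so a count over the whole gene is a limited check of them. Over 14052 genes, log2 CPM of WT 3 correlated at r = 0.991 with KO 1 and at 0.946 with WT 1, and KO 3 correlated at 0.979 with KO 1 and at 0.933 with WT 1, a description of pairs of libraries over genes. All 13 ILC2 markers looked at had a mean above 1 CPM, with sums of 5797 to 5994 CPM in the KO libraries and 6081 to 9768 CPM in the WT libraries. With all 6 libraries, edgeR called 0 of these 13 and DESeq2 called 1 lower, beside 2.21% of all genes. Without WT 3, edgeR called 1 of these 13 higher and 9 lower, beside 17.7% and 16.1% of all genes. The part of this in the members' levels was not tested. Library totals were 28827545 to 33662979 estimated counts, where 3 counts are 0.0891 to 0.104 CPM. The quasi-likelihood test of edgeR, run on the 6 libraries together with a threshold of 0.05 on the adjusted p, called 0.0% of 14052 genes, although 2026 had an unadjusted p under 0.05. DESeq2 called 325 of them, or 2.31%, and limma-voom and limma-trend 0. Leaving out WT 3, edgeR called 33.9% of 14743 genes. Counts of calls, where given, are shown with and without that library. Many single genes outside the members have only the fit without it. WT 3 was singled out by its levels in these same data, and leaving it out narrows the WT spread. Standard errors and p-values of the fits without it may therefore be too small, and its calls are descriptions.

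Il13 and Csf2 were higher in every KO library than in WT 1 and WT 2, Il4 was lower, and Il5, Rad50 and Kif3a stayed closer together. None of the 6 members passed with all 6 libraries (edgeR, DESeq2, limma-voom and limma-trend each called 0, where DESeq2 called 2.21% of all genes lower). At an unadjusted p under 0.05 edgeR, DESeq2 and limma-voom had 1 member each and limma-trend had 2. Over all genes tested, edgeR had 2026 of 14052 (14.4%) at that cut. DESeq2 had 2689 of 14052, limma-voom 2328 of 14052 and limma-trend 2464 of 14051. Without WT 3, edgeR called 3 of 6, with Il13 and Csf2 higher and Il4 lower, where 17.7% of all genes tested were called higher and 16.1% lower. DESeq2 without WT 3 called 3 of 6 members in the same directions, beside 38.4% of all genes (19.6% higher, 18.9% lower). Without both libraries numbered 3, edgeR again called 3 of 6, beside 45.4% of all genes.

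**Figure D1:**
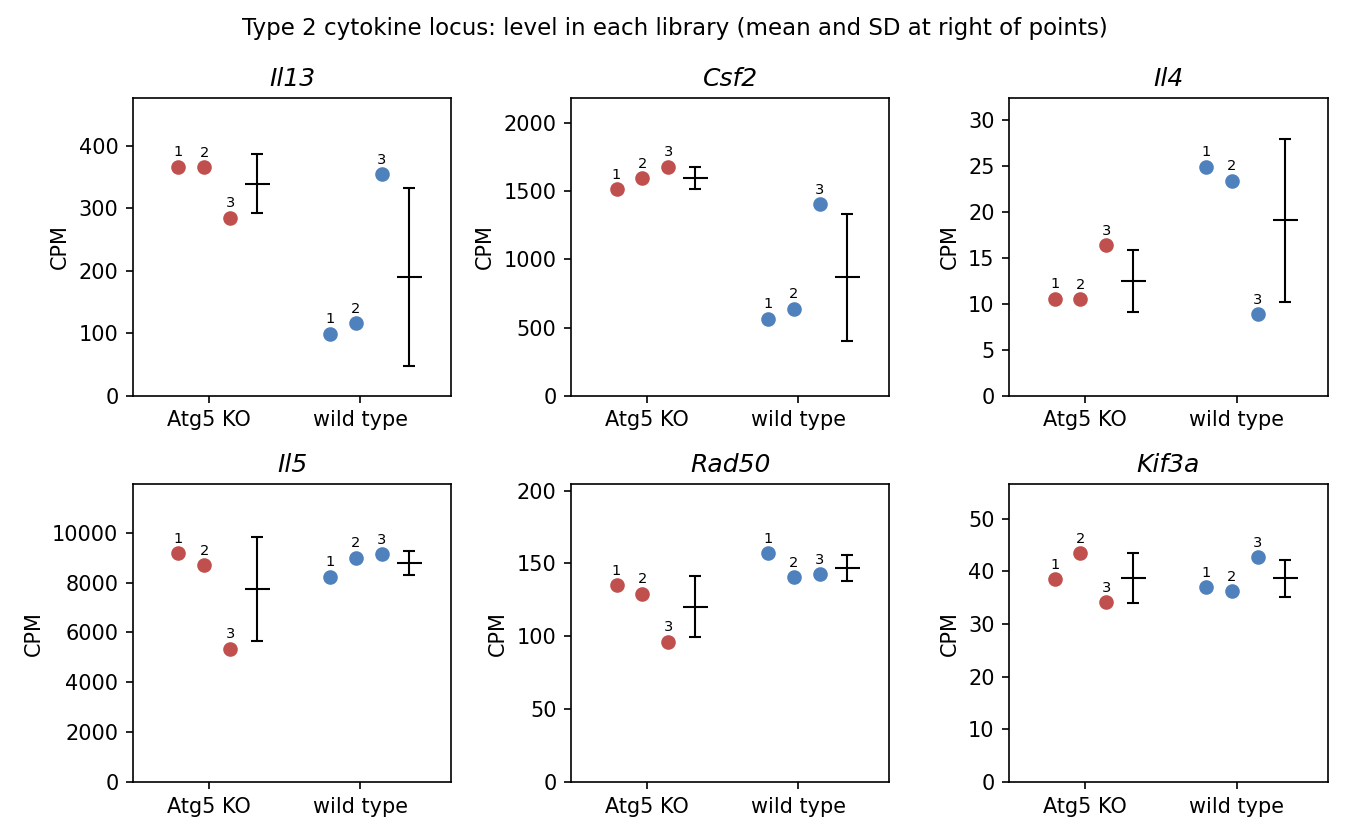
Level of each member in counts per 1000000 (CPM, linear axis from 0) in the 3 KO libraries (red, left) and the 3 WT libraries (blue, right), numbered by replicate, with the group mean and SD as a bar beside the points. WT 3 lies with the KO libraries for Il13, Csf2 and Il4, and KO 3 lies lowest for Il5 and Rad50.

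Il13, the cytokine that drives mucus and airway responses, was at 367, 366 and 285 CPM in KO 1, KO 2 and KO 3, against 99.0, 116 and 355 CPM in WT 1, WT 2 and WT 3. The groups overlapped, because WT 3 lay above KO 3. The means were 339 ± 46.9 CPM in KO and 190.1 ± 143 CPM in WT (SD, n = 3 each). The log2 difference, KO minus WT, was 0.84 (SE 0.48, adjusted p = 0.385, edgeR). With WT 3 left out, edgeR called Il13 higher, at a log2 difference of 1.66 (SE 0.15, adjusted p = 0.000305). WT 3 itself lay 1.72 log2 units above the mean of WT 1 and WT 2 and 0.05 below that of KO 1 and KO 2 (difference -0.0463).

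Csf2, the GM-CSF gene, had levels of 1514, 1598 and 1682 CPM in KO 1, KO 2 and KO 3, against 564, 639.65 and 1404 CPM in WT 1, WT 2 and WT 3. All 3 KO libraries lay above all 3 WT libraries, a separation in this direction that 9.26% of all tested genes showed. KO libraries averaged 1598 ± 83.7 CPM and WT libraries 869 ± 465 CPM (SD, n = 3 each). The log2 difference was 0.88 with all 6 libraries (SE 0.35, adjusted p = 0.342, edgeR). Without WT 3, Csf2 rose by 1.42 (SE 0.10, adjusted p = 0.000133, edgeR). The gap between KO 1, the lowest KO library, and WT 3 was small beside that between WT 3 and WT 2.

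Il4 had the lowest level per length of the 4 cytokines and differed in the opposite direction to its neighbour Il13. It was at 10.5, 10.5 and 16.3 CPM in KO 1, KO 2 and KO 3, against 24.9, 23.4 and 8.88 CPM in WT 1, WT 2 and WT 3. WT 3 was the lowest of all 6 libraries and KO 3 the highest of the KO libraries, so the groups overlapped. The means were 12.4 ± 3.36 CPM in KO and 19.1 ± 8.84 CPM in WT (SD, n = 3 each), with a log2 difference of -0.61 (SE 0.41, adjusted p = 0.431, edgeR). Without WT 3, Il4 fell by 0.95 (SE 0.23, adjusted p = 0.0193, edgeR). Basophils and mast cells also make IL-4. In the same libraries 11 of 12 of their markers had values. Their sum was 198 to 206 CPM in the KO libraries and 99.0 to 239 CPM in the WT libraries, most of it Kit. Without Kit the sum was 15.1 to 26.8 CPM in the KO libraries, against 57.7, 39.8 and 26.2 CPM in WT 1, WT 2 and WT 3. Among them Hdc, the histidine decarboxylase, was at 0.658, 1.64 and 2.74 CPM in KO 1, KO 2 and KO 3, against 23.4, 14.1 and 2.55 CPM in WT 1, WT 2 and WT 3. With all 6 libraries, edgeR called 0 of 9 tested markers. DESeq2 called 2 lower, Cd200r3 and Hdc (adjusted p = 0.000381 and 0.0131, DESeq2), where it called 2.21% of all genes lower. Cd200r3 and Fcer1a were lower in every KO library than in every WT library, as in 9.22% of all genes. Without WT 3, edgeR called 3 of 9 tested markers lower (Hdc, Cd200r3 and Fcer1a) and 2 higher (Kit and Tpsab1). Over all genes 16.1% were called lower and 17.7% higher. Tpsb2, Cma1, Cpa3 and Mcpt8 were not called. The mast cell tryptase gene Tpsab1 was at 5.85, 6.18 and 6.47 CPM in KO 1, KO 2 and KO 3, against 0.721, 0.196 and 6.33 CPM in WT 1, WT 2 and WT 3. Ms4a2, the beta chain of the IgE receptor, was at 0 in 5 libraries and at 0.36 CPM in WT 2. The part of these markers in the Il4 difference was not tested. In bulk RNA, fewer cells of a type and less RNA per cell cannot be told apart.

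Il5 had the highest level per length of the members in every library. It was at 9187, 8696 and 5348 CPM in KO 1, KO 2 and KO 3, against 8236, 8997 and 9142 CPM in WT 1, WT 2 and WT 3. KO 3 stood below the other 5 libraries, which lay close together, and the groups overlapped. KO libraries averaged 7744 ± 2089 CPM and WT libraries 8792 ± 487 CPM (SD, n = 3 each). Neither fit called it, at -0.18 with all 6 libraries (SE 0.25, adjusted p = 0.688, edgeR) and -0.15 without WT 3 (SE 0.22, adjusted p = 0.65, edgeR). Without KO 3 the difference was 0.03 (0.0296, adjusted p = 0.947, edgeR). KO 3 also stood apart in the immunoglobulin gene Ighm, at 194 CPM against 7.82 to 17.3 CPM in the other 5 libraries. The summed B cell markers (5 of 7 with values) were 205 CPM in KO 3 and 24.6 to 31.6 CPM elsewhere. Jchain, of the same list, was also highest in KO 3, at 4.40 CPM against 0 to 0.132 CPM in the other 5 libraries. Without Ighm the sum, most of it Cd79b, was lowest in KO 3, at 11.1 CPM against 12.4 to 19.5 CPM. The part of this in the Il5 level was not tested.

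Rad50, a subunit of the MRE11 complex that senses DNA breaks, was at 135, 129 and 96.3 CPM in KO 1, KO 2 and KO 3, against 157, 141 and 142 CPM in WT 1, WT 2 and WT 3. Every KO library lay below every WT library, as in 9.22% of tested genes, and here WT 3 stood with the other WT libraries. The means were 120.2 ± 20.9 CPM in KO and 147 ± 9.08 CPM in WT (SD, n = 3 each). The difference was small and did not pass in either fit, at -0.29 with all 6 libraries (SE 0.16, adjusted p = 0.384, edgeR) and -0.30 without WT 3 (SE 0.15, adjusted p = 0.18, edgeR). Csf2 and Rad50 were thus the 2 of 6 members whose groups did not overlap, against 18.5% of all tested genes.

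Kif3a, a motor subunit of kinesin-2 that builds cilia, was at 38.5, 43.5 and 34.1 CPM in KO 1, KO 2 and KO 3, against 37.0, 36.3 and 42.7 CPM in WT 1, WT 2 and WT 3. The groups overlapped fully, with means of 38.7 ± 4.70 CPM in KO and 38.7 ± 3.51 CPM in WT (SD, n = 3 each). The log2 difference was 0.0019 with all 6 libraries (SE 0.15, adjusted p = 0.995, edgeR) and 0.0857 without WT 3 (SE 0.14, adjusted p = 0.689, edgeR), and its sign changed with the scaling.

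Levels were set in order per length, as CPM per kilobase of annotated exon. Il5 was first, at 3480 to 5977 over the 6 libraries, then Csf2 at 705 to 2102, Il13 at 82.1 to 304 and Rad50 at 17.9 to 29.2. This order held in each library. Il4, at 7.23 to 20.3, and Kif3a, at 9.51 to 12.1, changed places. Il4 was above Kif3a in KO 3, WT 1 and WT 2 and below it in KO 1, KO 2 and WT 3. The length used was the union of a gene's annotated exons, 1227 bases for Il4, while each Il4 transcript has 530 to 605 bases. A shorter length raises Il4, so its places against Kif3a and Rad50 depend on the length used.

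The balance between neighbouring cytokine genes followed the same split of the libraries. There were 34.9, 34.9 and 17.5 Il13 counts for each Il4 count in KO 1, KO 2 and KO 3, against 3.98, 4.98 and 40.0 in WT 1, WT 2 and WT 3. WT 3 had the highest ratio of all and KO 3 lay between the pairs. Il5 counts for each Il13 count were 25.1, 23.7 and 18.7 in KO 1, KO 2 and KO 3, against 83.2, 77.2 and 25.8 in WT 1, WT 2 and WT 3. Csf2 and Il13 kept a narrower ratio, 3.96 to 5.89 Csf2 counts for each Il13 count across all libraries. These ratios are descriptions with no test.

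Antisense transcripts overlap 2 of the members, and the sources used here do not state whether the authors' counting used strand. Gm12214 (chromosome 11, 53723953 to 53724618, reverse strand) lies within Il5 and had 0.209% to 0.286% as many counts as Il5. Gm12223 (54247600 to 54254495, forward strand) overlaps Csf2 and had 0.427% to 0.465% as many counts as Csf2 in the KO libraries, against 0.842%, 0.741% and 0.481% in WT 1, WT 2 and WT 3. Reads of a gene and of its antisense partner cannot be told apart without strand, so these shares are those of the deposited counts and do not bound the antisense RNA. Neither passed without WT 3 (log2 difference -0.09 for Gm12214, adjusted p = 0.853, and 0.59 for Gm12223, adjusted p = 0.101, edgeR).

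The genes with the most similar pattern over the 6 libraries differed between the members. Likeness was the root mean square difference of log2(CPM + 0.5) after each gene's own mean was taken off, over 9281 genes of at least 5 CPM. Closest to Csf2 were Rplp0 at 0.0357 log2 units, Ccdc50 at 0.0496 and Rpl12 at 0.0506. Rplp0 and Rpl12 encode ribosomal proteins, and both families have pseudogene copies that make their counts uncertain. Closest to Il13 were Wdr4 (0.0436), Mecr (0.0453) and Impdh2-ps (0.0476), which is a pseudogene that can share reads with Impdh2. Il4 was nearest to Cers4 (0.0744), a ceramide synthase, then Yipf2 (0.0965) and Pnrc1 (0.0965). Il5 was nearest to Hmgb2 (0.0275), a chromatin protein of dividing cells, Pola1 (0.0295), the catalytic subunit of DNA polymerase alpha, and Cbx3 (0.0411). Hmgb2 was at 549, 517 and 307 CPM in KO 1, KO 2 and KO 3, against 482, 537 and 521 CPM in WT 1, WT 2 and WT 3, with KO 3 the lowest, as for Il5. Among the members, Csf2 and Il13 lay 0.233 apart, and Il4 and Il13 lay 1.34 apart, the greatest distance between any pair that includes a cytokine. All these values share the same 6 libraries, which fall into separate clusters, and carry no p.

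Neighbours of the locus were mostly called lower or not called, where Il13 and Csf2 were called higher. Over all 30 tested genes within 1000000 bases of a member, edgeR called 0 with all 6 libraries. DESeq2 called 1 of the 30, beside 2.31% of all genes. At an unadjusted p under 0.05 edgeR had 6 of the 30, beside 14.4% of all genes. Leaving out WT 3, edgeR called 4 of these 30 higher and 10 lower, beside 17.7% and 16.1% of all genes. Their median log2 difference was -0.10. Of 16 listed neighbours 13 were tested, and edgeR and DESeq2 each called 0 with all 6 libraries. At an unadjusted p under 0.05 edgeR had 2 of the 13, beside 14.4% of all genes. Without WT 3, 1 was called higher and 7 lower, beside 17.7% and 16.1% of all genes, with a median log2 difference of -0.44 against 0.02 (0.0161) over all genes tested. The one called higher was Uqcrq, a subunit of respiratory complex III, at 239, 262 and 252 CPM in KO 1, KO 2 and KO 3, against 108, 122 and 242 CPM in WT 1, WT 2 and WT 3. Sept8, a septin gene beyond Kif3a, was at 73.5, 78.5 and 67.3 CPM in KO 1, KO 2 and KO 3, against 148, 148 and 83.5 CPM in WT 1, WT 2 and WT 3, and its groups did not overlap. All KO libraries lay below all WT libraries in 2 of the 13 tested neighbours, beside 9.22% of all genes. Irf1, the interferon regulatory factor gene beyond Il5, was at 59.9, 61.4 and 68.8 CPM in KO 1, KO 2 and KO 3, against 97.4, 103 and 60.3 CPM in WT 1, WT 2 and WT 3. In that fit Sept8 fell by 1.01, Irf1 by 0.66, Hspa4, a chaperone gene, by 0.70, Aff4, a scaffold of transcription elongation, by 1.12 and Cdc42se2 by 0.39 on the log2 scale (edgeR adjusted p from 0.000421 for Sept8 to 0.00901 for Cdc42se2).

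**Figure D2:**
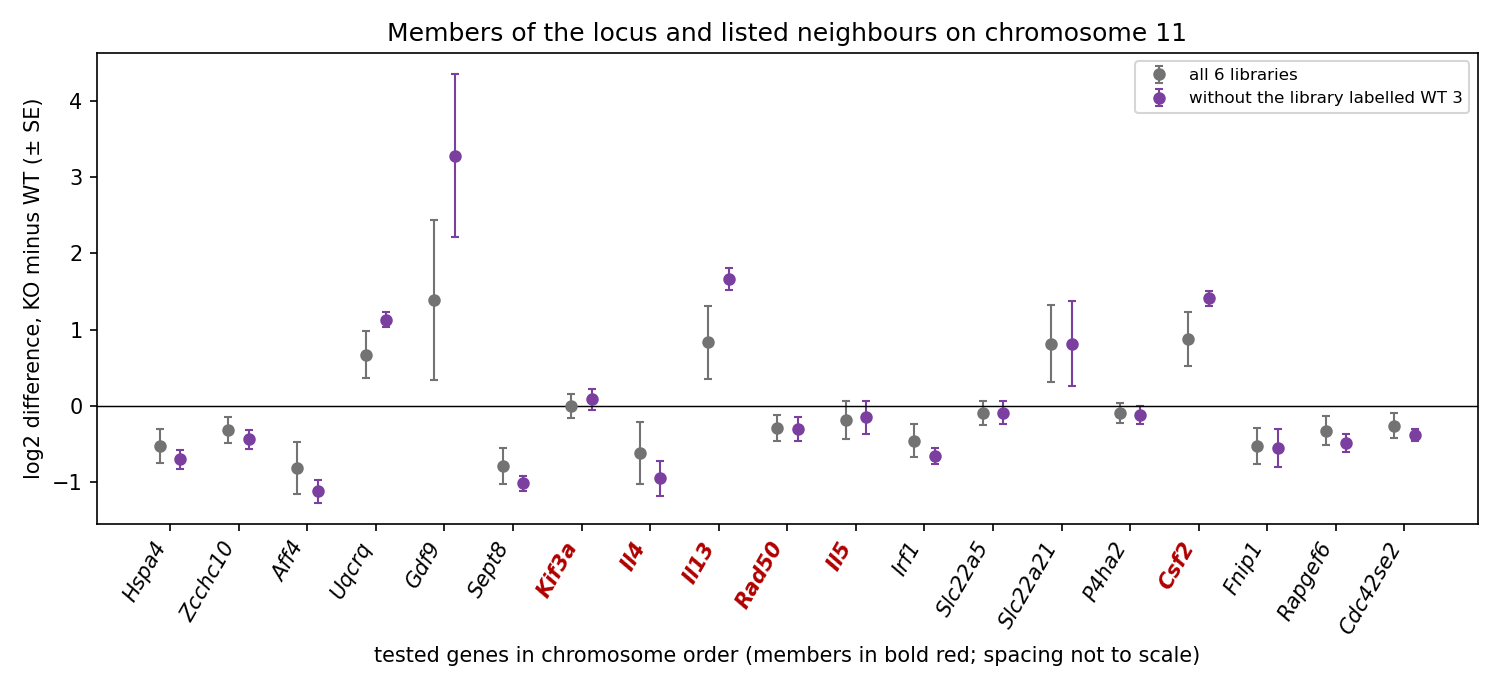
Log2 difference, KO minus WT, with its standard error for the 6 members (bold red names) and the 13 tested neighbours, in chromosome order, from the fit to all 6 libraries (grey) and the fit without WT 3 (purple). Il13 and Csf2 stand at 1.66 and 1.42 in the second fit while Il4, Rad50 and Il5 between and beside them lie below 0.

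Regulators of the locus were called in both directions, and edgeR called none with all 6 libraries. Of 43 tested, 9 had an unadjusted edgeR p under 0.05, beside 14.4% of all genes. DESeq2 called 1, Nfatc2, beside 2.31% of all genes. Without WT 3, 11 of 44 were called higher and 12 lower, beside 17.7% and 16.1% of all genes. Gata3, the factor that the cytokine genes depend on, was at 899, 924 and 926 CPM in KO 1, KO 2 and KO 3, against 1558, 1532 and 964 CPM in WT 1, WT 2 and WT 3, and its groups did not overlap. Of the 43 tested regulators, 3 had all KO libraries above all WT libraries and 9 had them below. Over all genes tested, 9.26% and 9.22% did so. Without WT 3, Gata3 fell by 0.75 (SE 0.07, adjusted p = 0.000435, edgeR). Nfatc2, which encodes a calcium-driven activator of cytokine promoters, was at 23.6, 28.1 and 26.7 CPM in KO 1, KO 2 and KO 3, against 74.2, 75.5 and 30.9 CPM in WT 1, WT 2 and WT 3, and fell by 1.51 in that fit (adjusted p = 0.000202, edgeR). Nfatc1, its relative, and Bcl11b, a factor of ILC2 identity, were also called lower, by 1.21 and 0.86 on the log2 scale. Id2, needed for all innate lymphoid cells, fell by 1.07, while Junb, an AP-1 subunit, rose by 0.36 (edgeR adjusted p = 0.000187 and 0.0201). Zc3h12a, which encodes the mRNA decay enzyme Regnase-1 and is singled out after its values were seen, was at 106, 115 and 116 CPM in KO 1, KO 2 and KO 3, against 13.0, 13.7 and 114 CPM in WT 1, WT 2 and WT 3. It rose by 3.08 without WT 3 (SE 0.11, adjusted p = 2.1e-05, edgeR) and did not pass with all 6 libraries (adjusted p = 0.422, edgeR).

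Receptor chains for the locus cytokines were called lower or not at all. Without WT 3, edgeR called 4 of 6 lower and 0 higher, beside 16.1% and 17.7% of all genes. With all 6 libraries it called 0, and 3 had an unadjusted edgeR p under 0.05, beside 14.4% of all genes. DESeq2 called 1 of 6 with all 6 libraries, Csf2rb, beside 2.31% of all genes. Csf2rb, the signalling chain shared by GM-CSF, IL-5 and IL-3 receptors, was at 9.83, 6.66 and 3.89 CPM in KO 1, KO 2 and KO 3, against 152, 133 and 9.01 CPM in WT 1, WT 2 and WT 3. It fell by 4.39 without WT 3 (SE 0.33, adjusted p = 0.000174, edgeR), opposite to Csf2 itself. Csf2ra, another GM-CSF receptor chain, was at 12.6, 12.5 and 16.5 CPM in KO 1, KO 2 and KO 3. In WT 1, WT 2 and WT 3 it was at 11.5, 7.26 and 12.2 CPM. Its difference without WT 3 was 0.57 and not called (adjusted p = 0.143, edgeR). The chains Il5ra, Il13ra1 and Il13ra2 had no values. Csf2rb2, the close mouse paralogue of Csf2rb, fell by 2.13 without WT 3, and reads shared between the pair make both counts uncertain. Il4ra, the chain used by IL-4 and IL-13, was at 307, 269 and 364 CPM in KO 1, KO 2 and KO 3, against 476, 495 and 303 CPM in WT 1, WT 2 and WT 3, with KO 3 above WT 3. In the same fit Il4ra fell by 0.63 and Il2rg, the common gamma chain, fell by 0.64 (adjusted p = 0.00968 and 0.00627, edgeR).

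Cytokines outside the locus were also called in both directions, but only without WT 3 by edgeR. Of 26 listed, 23 were tested. EdgeR called 0 of them with all 6 libraries, and 5 had an unadjusted edgeR p under 0.05, beside 14.4% of all genes. DESeq2 called 3, all lower, where it called 2.21% of all genes lower. The KO libraries lay all above the WT libraries in 1 of the 23 and all below in 1. Over all genes tested, 9.26% and 9.22% did so. Without WT 3, 9 were called higher and 6 lower, beside 17.7% and 16.1% of all genes. The 9 called higher were Il9, Il6, Tnf, Il22, Ccl3, Ccl5, Penk, Pdgfb and Calca, and the 6 called lower were Cxcl3, Metrnl, Ltb, Lta, Tnfsf14 and Nmb. Il6, an inflammatory cytokine, was at 68.9, 57.8 and 96.2 CPM in KO 1, KO 2 and KO 3, against 2.03, 1.31 and 55.2 CPM in WT 1, WT 2 and WT 3. Il9, a cytokine that acts on mast cells and on ILC2s themselves, was at 136.5, 109 and 133 CPM in KO 1, KO 2 and KO 3, against 2.59, 10.6 and 136 CPM in WT 1, WT 2 and WT 3. In that fit Il6 rose by 5.48, Il9 by 4.26 and Tnf by 1.29 (edgeR adjusted p = 8.00e-05, 0.00168 and 0.000433). Areg, which encodes the repair factor amphiregulin, was at 239.8, 223 and 130.5 CPM in KO 1, KO 2 and KO 3, against 298, 329.6 and 223 CPM in WT 1, WT 2 and WT 3, and did not pass without WT 3 (-0.66, adjusted p = 0.0716, edgeR). Cxcl3, a neutrophil chemokine, was at 26.3, 25.5 and 36.2 CPM in KO 1, KO 2 and KO 3, against 656, 711 and 28.2 CPM in WT 1, WT 2 and WT 3. In the fit without WT 3, Cxcl3 fell by 4.53, Metrnl, a secreted meteorin-like factor, fell by 2.43, Ltb, a lymphotoxin chain, by 1.99 and Tnfsf14, the cytokine LIGHT, by 0.99 (edgeR adjusted p from 2.1e-05 for Cxcl3 to 0.00184 for Ltb).

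**Figure D3:**
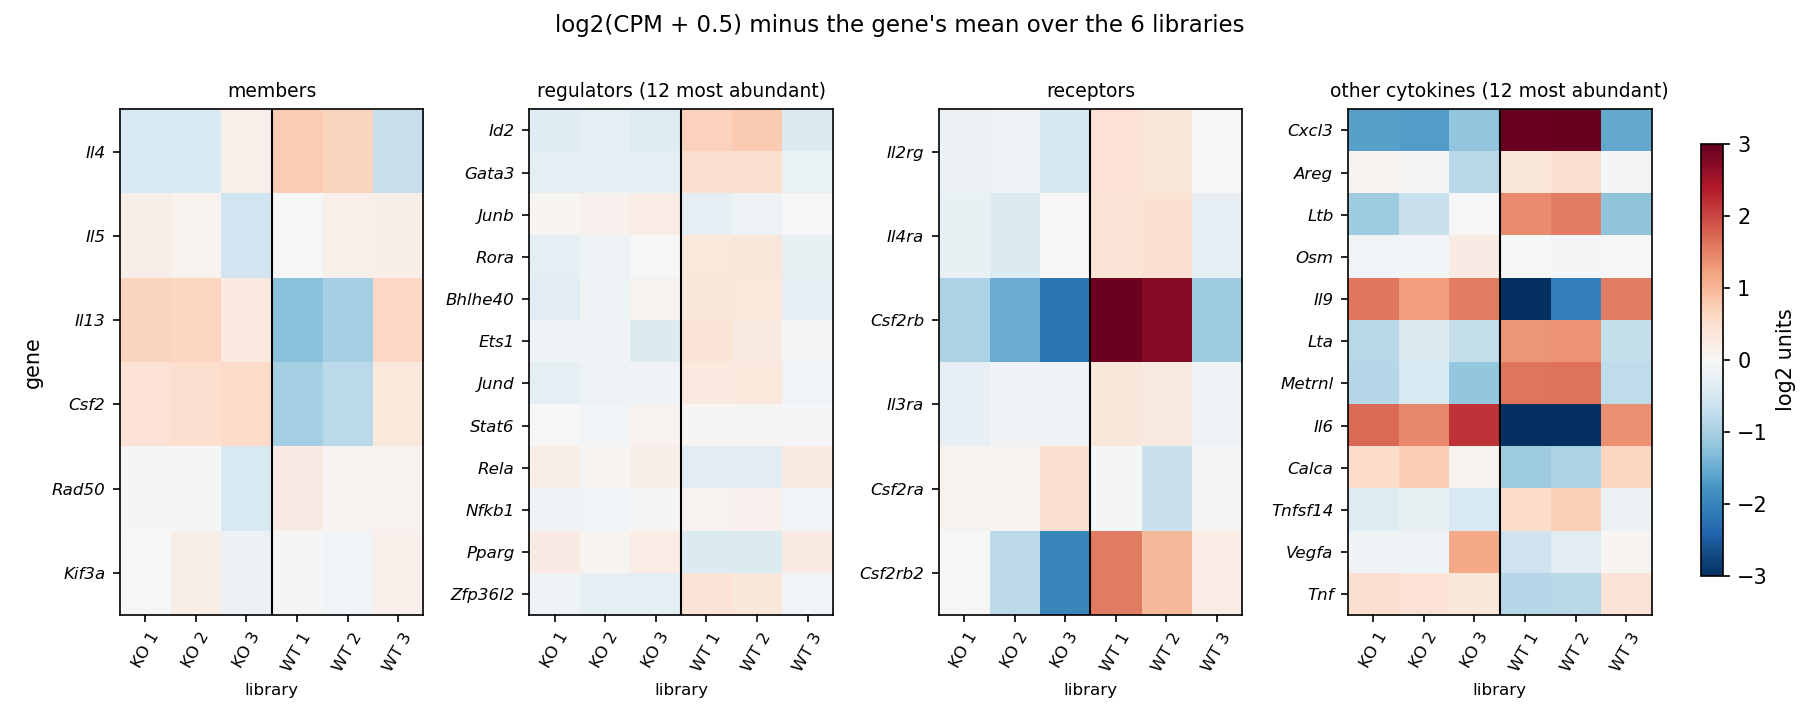
Each gene's log2(CPM + 0.5) minus its own mean over the 6 libraries, for the 6 members, the 12 most abundant regulators, the 6 receptor chains and the 12 most abundant other cytokines, with KO libraries left of the line and WT libraries right of it. Colours stop at 3 log2 units in either direction. The column of WT 3 resembles those of the KO libraries for Il13, Csf2, Il4 and Csf2rb.

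Genes listed as markers of other cells were looked at, and their counts do not show which cells made the RNA. T cell markers with values (10 of 12) summed to 184 to 209 CPM in the KO libraries and to 176 to 445 CPM in the WT libraries, with Zap70 and Lat the highest in CPM. With all 6 libraries, edgeR and DESeq2 each called 0 of 9 tested T cell markers. Without WT 3, edgeR called 3 of these 9 lower (Zap70, Lat and Cd3g) and 1 higher (Cd28). Over all genes 16.1% were called lower and 17.7% higher. Cd5, not called, was at 0.796 to 4.05 CPM in KO and 0.0327 to 0.298 CPM in WT. Of the CD3 chains, Cd3g was at 11.4 to 18.8 CPM in KO and 16.3 to 37.2 CPM in WT, and Cd3e, not called, was at 2.79 to 4.18 CPM in KO and 2.39 to 4.41 CPM in WT. Eosinophil and neutrophil markers (3 of 13, led by Ccr3 and S100a9) summed to 0.957 to 1.07 CPM in KO and 1.52 to 4.65 CPM in WT. Macrophage and dendritic cell markers (8 of 14) summed to 45.3 to 66.7 CPM in KO and 58.8 to 73.5 CPM in WT, most of it Xcr1, followed by Chil3. Epithelial, endothelial and stromal markers (7 of 13) summed to 120.2 to 140.3 CPM in KO and 60.9 to 108 CPM in WT, most of it Pecam1 in KO. Without Pecam1 the direction turned, at 13.1, 29.0 and 9.89 CPM in KO 1, KO 2 and KO 3. The sums in WT 1, WT 2 and WT 3 were then 58.2, 52.3 and 15.4 CPM. Their most abundant genes were Pecam1, at 91.9 to 130.5 CPM in KO and 8.54 to 93.0 CPM in WT, and Epcam, at 8.90 to 13.6 CPM in KO and 14.3 to 57.4 CPM in WT. Sftpc, Sftpb, Cdh5, Kdr, Col3a1 and Dcn, of the same list, had no values. The B cell gene Cd79b, second to Ighm, was at 6.38 to 13.7 CPM in KO and 13.3 to 19.3 CPM in WT. Whether other cells made this RNA, and their part in the members' levels, was not tested.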

How the data were processed

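Messenger RNA was sequenced from ILC2s sorted from lung, in 3 KO and 3 WT libraries, each made from 10 ng of RNA per the labels' protocols. Groups come from the sample titles, and columns were matched to samples by the names in the descriptions. The authors deposited estimated counts per gene for 18543 genes, and in each library 47.1% to 48.5% of these values lay within 1e-06 of a whole number. The authors also deposited normalized values, a signal for 16322 genes in which 1 was added to each estimated count before a library's own factor (31.2 to 36.0) divided it. CASAVA 1.8.2, STAR, Partek and mm10 are named, per the submitters' processing notes, with no role or order. How reads that match several genes were handled is not stated in the sources used here. Coordinates are those of the deposited table, with the end reduced by 1 base. So read, 16826 genes matched GENCODE vM21, which gave exons and lengths.

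After rounding, the estimated counts went into edgeR 4.0.16 under R 4.3.3 (TMM, filterByExpr, robust glmQLFit, glmQLFTest), KO against WT with no covariate, adjusted by Benjamini-Hochberg over all genes tested with a threshold of 0.05. Standard errors were taken as the log2 difference over the root of the F statistic, and CPM as rounded counts over each TMM-scaled library total. Alternatives were other scalings and filters, DESeq2 1.42.0, limma 3.58.1 (voom, and trend on log2 of the signal plus 1), a dispersion fit without robust weights, a block for the replicate number, leaving out each library in turn, both libraries numbered 3 left out, and a threshold of 0.10. DESeq2 without WT 3 was added after the data were seen. Every pair of libraries differed by more than sampling noise (chi-square per gene at least 9.03). The scripts were tested on simulated data.

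The members, gene lists, named genes and the fit without WT 3 were chosen with earlier results of these data known. Named genes are the members, the 3 most abundant and the 3 of lowest p in each list of related genes, Gata3, Irf1, Il4ra and Areg, the 2 most abundant markers of each other cell type, and the 3 genes nearest in pattern to Il4, Il5, Il13 and Csf2. Other genes named were chosen after their values were seen. They include Zc3h12a, Csf2ra, the cytokines called higher, Lta, Nmb, and further markers of T cells, B cells, mast cells and basophils. No set test was run. Floors of 3 counts cover counting error only.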

Additional observations from a re-analysis of the deposited data

How the results depend on the processing

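The library labelled WT 3 decides every call on the members. In the 16 alternatives that keep it, no member passed, and the log2 differences, KO minus WT, of Il13, Csf2, Il4 and Rad50 kept their sign. Leaving out 1 library in turn gave 0.51 to 1.66 for Il13, 0.63 to 1.42 for Csf2, -0.95 to -0.41 for Il4, -0.37 to -0.15 for Rad50, -0.32 to 0.03 (0.0296) for Il5 and -0.1189 to 0.0903 for Kif3a. Over all genes it gave 0 to 4991 calls, the latter 33.9% of 14743. The lists gave 0 to 8 of 13 neighbours, 0 to 23 of 43 or 44 regulators, 0 to 4 of 6 receptor chains and 0 to 15 of 23 other cytokines. In each of these 5 counts the highest is the fit without WT 3 and the other 5 fits gave 0.

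Without both libraries numbered 3 (2 against 2), edgeR called 6505 genes, or 45.4% of 14315. Among them were 9 of 13 neighbours, 29 of 43 regulators, 5 of 6 receptor chains and 16 of 23 other cytokines. Il13 was at 1.77, Csf2 at 1.38 and Il4 at -1.19, all 3 called (adjusted p from 4.62e-07 to 0.000281, edgeR), and Il5 turned to 0.06 (0.0617). DESeq2 with all 6 libraries called 325 genes (2.31%), with 1 of 43 regulators, 1 of 6 receptor chains and 3 of 23 other cytokines. DESeq2 without WT 3 called 5668 genes, or 38.4% of 14743. Among them were 9 of 13 neighbours, 25 of 44 regulators, 5 of 6 receptor chains and 17 of 23 other cytokines. In that fit Il13 was at 1.64, Csf2 at 1.39 and Il4 at -0.98.

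Kif3a, near 0 throughout, turned its sign with DESeq2 size factors (-0.0127), upper-quartile scaling (-0.0224), library totals (-0.008), every gene kept (-0.0318), genes kept at 2 CPM in at least 3 libraries (-0.0324), DESeq2 (-0.0127), limma-trend (-0.0304) and the replicate block (-0.0011). The cause of these changes was not tested. No pairing by replicate number was seen, as deviations of libraries with the same number correlated at -0.0367, 0.0196 and -0.0078. The distance of WT 3 from WT 1 and WT 2 dominates the WT deviations, so this check cannot decide on a pairing. With the number as a block, edgeR called 0 genes, as without it. Il4, at 268 to 760 counts, has the largest counting error of the members.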
